A study of Mus musculus with 10 samples.

Results

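Of the 9134 H3K4me3 regions found in sorted nEnd subpopulations, 253 lay at promoters of noncoding genes and at no promoter of a protein-coding transcript. A region was the union of overlapping consensus peaks of Oct4+ nEnd, DP nEnd and Pdgfra+ nEnd. It was a member where at least 1 bp of it fell within 1000 bp before to 100 bp after a transcription start site (TSS) of a gene that GENCODE release M21 (GRCm38) does not class as protein-coding, and within no such window of a protein-coding transcript. The members were therefore chosen by the consensus peaks of these same libraries, and in which consensus lists they fell is given as a description. A further 8494 regions lay at a protein-coding promoter, 1973 of them also at a noncoding one, and 387 lay at neither.

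H3K4me3 is deposited around the start sites of genes, including those of long noncoding RNAs (lncRNAs) and of the primary transcripts that carry microRNAs (miRNAs) and small nucleolar RNAs (snoRNAs). Many lncRNAs are transcribed in few cell types, and pluripotent cells carry a miRNA cluster and a set of lncRNAs that are lost on differentiation. The annotated start of a miRNA or snoRNA gene is the end of the processed RNA, so a region there can mark the host transcript's promoter or its first exons.

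All 3 populations came from nEnd, naive extra-embryonic endoderm, made from mouse embryonic stem cells with an OCT4-mCherry reporter by differentiation in RPMI with Activin A, CHIR99021 and LIF (RACL), sorted for PDGFRA and expanded on mouse embryonic fibroblasts. FACS on the reporter and on PDGFRA-APC gave Oct4+ nEnd (4 libraries), DP nEnd, which is positive for both (3 libraries), and Pdgfra+ nEnd (3 libraries), with no further treatment. The assay was CUT&Tag: an antibody to H3K4me3 directs the transposase Tn5 to the mark. Peaks had been called per library against IgG, and each carried its total signal, which was not scaled between libraries. Signal is therefore given as a percentile within a library's own peaks, where 100 is the strongest peak, and sequencing depth is unknown. The libraries held 3477 to 10545 peaks, with the fewest in Oct4+ nEnd replicate 3, which the Oct4+ consensus does not include: replicates 1, 2 and 4 alone rebuilt all 7860 of its intervals. The promoter of *Nanog*, a pluripotency factor, had a peak in 4 of 4 Oct4+, 3 of 3 DP and 0 of 3 Pdgfra+ libraries, and that of *Foxa2*, an endoderm factor, in 0 of 4, 3 of 3 and 3 of 3. *Esrrb* had the same counts as *Nanog*, and *Tdgf1* had 4, 1 and 0 such libraries. *Sox17*, with 2, 3 and 3, and *Pdgfra*, which was used for sorting, with 1, 3 and 3, also had peaks in Oct4+ libraries.

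The 253 members carried 391 noncoding genes. Regions with a lncRNA numbered 190 (75.1%). Of the others, 32 had a pseudogene as their leading class, 12 an unconfirmed transcript model (GENCODE type TEC), 9 a miRNA gene and 10 another small RNA gene. By gene, 134 were lincRNAs, 44 processed transcripts, 42 miRNAs, 32 snoRNAs and 31 antisense RNAs. Predicted or clone-based symbols made up 266 of the 391, and 176 regions held no gene with any other symbol. The members had a median width of 5494 bp, against 5332.5 bp for regions at coding promoters, although width is tied to the choice, since a wider region more often reaches a coding promoter. Their median distance to the nearest protein-coding TSS was 28127 bp, 10 lay within 2500 bp of one, and 52 overlapped the body of a protein-coding gene.

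Sequences are shown first for the miRNAs, because clusters that share seeds fell into different consensus lists. Of the 42 miRNA genes at members, 35 matched a RefSeq entry by symbol, with 63 different mature sequences and 48 different seeds (bases 2 to 8, in capitals). The Mir290 to Mir295 cluster (chr7:3209133-3224641, lists of Oct4+ and DP nEnd) encodes the main miRNAs of embryonic stem cells. Its 3p arms miR-291a, miR-294 and miR-295 have 1 seed in common. Those of miR-290a and miR-291b, which have other seeds, are shown beside them, and that of miR-292a was not among the matched sequences:
miR-291a-3p: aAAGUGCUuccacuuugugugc
miR-294-3p: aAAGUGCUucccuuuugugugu
miR-295-3p: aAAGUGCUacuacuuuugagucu
miR-290a-3p: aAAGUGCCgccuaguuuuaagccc
miR-291b-3p: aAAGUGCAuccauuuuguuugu
The Mir17 to Mir92-1 cluster in *Mir17hg* (chr14:115039783-115045168, all 3 lists) and its X-linked paralogue, the Mir106a to Mir363 cluster at *Kis2* (chrX:52740018-52747200, the Oct4+ list alone), both belong to a family that promotes proliferation. Their 5p arms miR-17 and miR-20a on chromosome 14 and miR-106a and miR-20b on the X chromosome have 1 seed in common:
miR-17-5p: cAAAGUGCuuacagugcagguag
miR-20a-5p: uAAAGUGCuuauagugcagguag
miR-106a-5p: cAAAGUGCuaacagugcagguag
miR-20b-5p: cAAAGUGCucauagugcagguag
Regions of the DP and Pdgfra+ lists held *Mir193a* and *Mir21a*, whose leading arms have seeds found in no other matched miRNA of the members:
miR-193a-3p: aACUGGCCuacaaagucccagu
miR-21a-5p: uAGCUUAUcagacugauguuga

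A start site from each main group of members is shown with its CpG dinucleotides in capitals, 250 bases before to 50 after the start and 5′ to 3′ in the direction of transcription. *Lncenc1* is a lncRNA of naive embryonic stem cells, and the window at its start within the member region (GRCm38, chr13:97482705-97483004, plus strand) had 4 CpGs and 45.7% GC. *Platr10*, one of the pluripotency-associated transcripts, had 1 CpG and 47.0% GC in its RefSeq promoter (chr3:75655682-75655981, minus strand). *Airn*, the imprinted antisense RNA that silences *Igf2r* in cis, had 3 CpGs and 45.7% GC (RefSeq, chr17:12741061-12741360, plus strand). *Snhg12*, a snoRNA host gene, had 18 CpGs and 53.0% GC (RefSeq, chr4:132308428-132308727, plus strand). The RefSeq windows are not those used for base composition below, which lie at the start nearest the centre of the region. In those windows *Platr10* had 6 CpGs and 49.7% GC, and *Airn* had 7 and 53.3%. The *Snhg12* region, taken at the start of *Snora16a*, had 10 and 48.3%.
Lncenc1 (Oct4+ list): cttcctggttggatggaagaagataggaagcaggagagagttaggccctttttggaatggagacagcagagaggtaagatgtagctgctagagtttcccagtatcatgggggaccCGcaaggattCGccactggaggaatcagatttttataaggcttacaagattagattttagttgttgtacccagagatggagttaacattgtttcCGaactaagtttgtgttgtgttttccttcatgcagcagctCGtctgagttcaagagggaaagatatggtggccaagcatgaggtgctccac
Platr10 (Oct4+ list): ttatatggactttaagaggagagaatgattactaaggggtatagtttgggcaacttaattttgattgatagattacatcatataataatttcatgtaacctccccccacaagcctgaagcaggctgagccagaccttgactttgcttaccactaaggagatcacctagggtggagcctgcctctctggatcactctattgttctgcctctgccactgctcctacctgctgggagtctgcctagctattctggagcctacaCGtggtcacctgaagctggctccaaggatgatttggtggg
Airn (DP and Pdgfra+ lists): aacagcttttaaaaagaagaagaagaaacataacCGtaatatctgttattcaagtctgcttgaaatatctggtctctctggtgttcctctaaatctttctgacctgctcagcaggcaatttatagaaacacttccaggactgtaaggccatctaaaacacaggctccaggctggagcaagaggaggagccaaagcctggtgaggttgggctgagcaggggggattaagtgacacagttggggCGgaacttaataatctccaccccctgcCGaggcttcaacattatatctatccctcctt
Snhg12 (all 3 lists): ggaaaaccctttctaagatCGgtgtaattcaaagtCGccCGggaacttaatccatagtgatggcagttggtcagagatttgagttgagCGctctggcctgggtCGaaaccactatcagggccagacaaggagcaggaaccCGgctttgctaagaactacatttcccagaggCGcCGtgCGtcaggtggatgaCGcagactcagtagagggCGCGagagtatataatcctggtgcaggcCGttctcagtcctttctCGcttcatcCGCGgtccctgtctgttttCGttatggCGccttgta

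The members fell into the consensus lists in other proportions than the regions at coding promoters. The Oct4+ list alone held 93 members (36.8%), against 538 coding regions (6.33%), and all 3 lists held 106 members (41.9%), against 6322 coding regions (74.4%). The DP and Pdgfra+ lists together held 23 members (9.09%) and 907 coding regions (10.7%). The other combinations held 5 to 15 members each. The 387 regions at no annotated promoter lay still further to the side of the Oct4+ list alone, which held 239 of them (61.8%), so a high share there is not particular to noncoding promoters. Read the other way, 10.7% of the 870 regions of the Oct4+ list alone were members, against 1.63% of the 6494 regions of all 3 lists. Since the lists chose the members, no test was made of these proportions. The share in the Oct4+ list alone was 34.4% to 39.5% under other promoter windows, lncRNA genes alone or a stricter coding class.

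**Figure D1:**
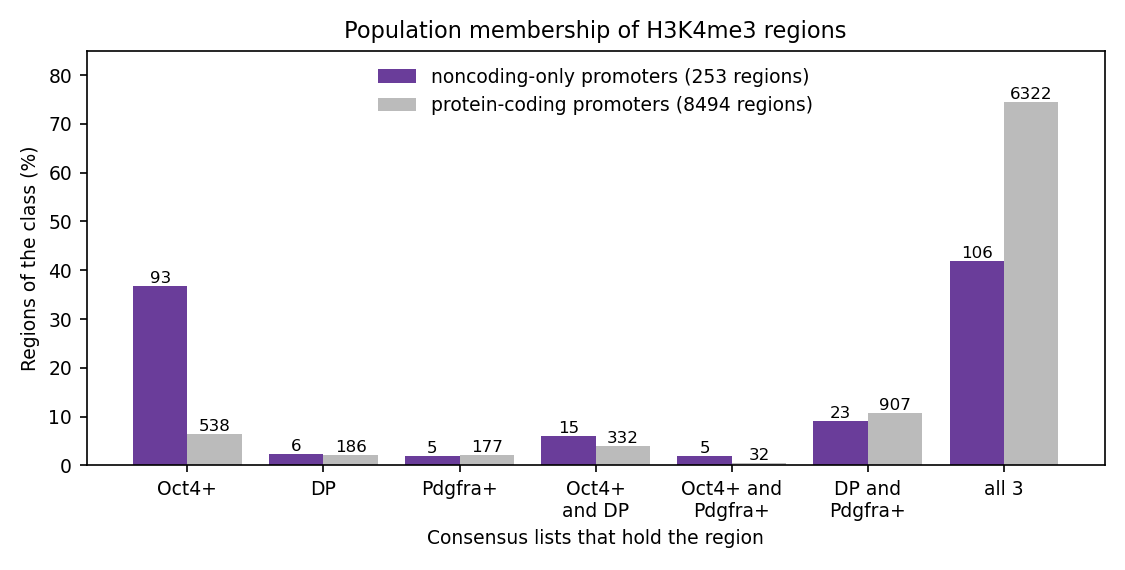
The bars give the percent of each class of H3K4me3 regions (y axis) in each combination of consensus lists (x axis), with the number of regions above each bar, for the 253 regions at noncoding-only promoters and the 8494 at protein-coding promoters. The Oct4+ list alone holds 36.8% of the noncoding-only regions and 6.33% of the coding ones, and the order is the other way for all 3 lists (41.9% and 74.4%).

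Membership differed among the kinds of noncoding gene. Of the 18 regions with a snoRNA or small Cajal body RNA gene, 16 (88.9%) were in all 3 lists and 1 in the Oct4+ list alone. Of the 15 at a miRNA host lncRNA, 10 (66.7%) were in all 3. The Oct4+ list alone held 67 of the 190 lncRNA regions (35.3%), 13 of the 32 pseudogene regions (40.6%) and 6 of the 12 TEC regions (50%). Its share of all members was 36.8%. The 32 are regions with a pseudogene as their leading class. Of all 47 regions with a pseudogene, 15 (31.9%) were in the Oct4+ list alone and 23 (48.9%) in all 3. None of these proportions was tested.

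A measure that does not use the lists is the share of all peaks of a library that lie at noncoding-only promoters, each peak judged by its own position, in or outside the consensus. The 4 Oct4+ nEnd libraries, in replicate order, had 3.32%, 2.82%, 2.39% and 2.74%. In DP nEnd it was 1.88%, 2.15% and 1.80%, and in Pdgfra+ nEnd 2.83%, 1.72% and 1.88%. Every Oct4+ library lay above every DP library, while Pdgfra+ nEnd replicate 1, the library with the most peaks, lay among the Oct4+ libraries. The means were 2.82% ± 0.386 (SD, n = 4), 1.94% ± 0.185 (SD, n = 3) and 2.14% ± 0.597 (SD, n = 3). The difference of 0.875 percentage points between Oct4+ and DP nEnd had p = 0.0571 in an exact two-sided permutation test, the smallest p that 4 against 3 libraries allow (Benjamini-Hochberg adjusted over the 3 pairs, 0.171). For Oct4+ against Pdgfra+ nEnd the difference was 0.674 points with exact permutation p = 0.229 (adjusted 0.343), and for DP against Pdgfra+ nEnd it was -0.201 points with p = 0.80. The last difference turned to 0.140 without Pdgfra+ nEnd replicate 1. None passed 0.05, and no outcome could have for 4 against 3 libraries in this two-sided test.

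With the 3477 peaks of highest total signal taken from every library, the shares were 2.50%, 2.16%, 2.39% and 2.62% in Oct4+ nEnd, 1.41%, 1.24% and 1.29% in DP nEnd, and 1.24%, 1.09% and 1.18% in Pdgfra+ nEnd. The 4 Oct4+ libraries then lay above all 6 others, and DP minus Pdgfra+ nEnd was 0.144 points.

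**Figure D2:**
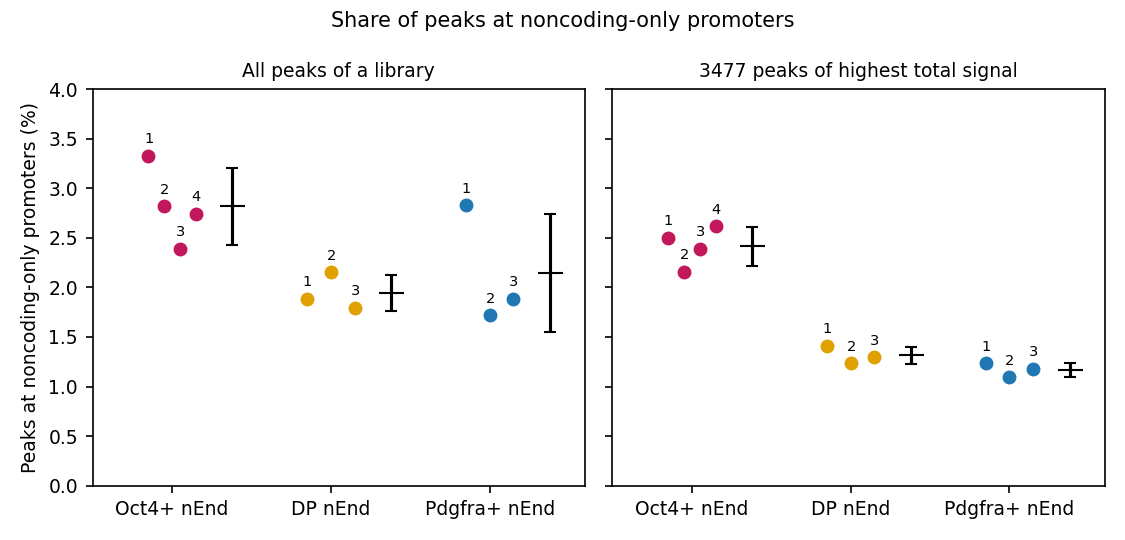
Each point is a library, labelled by its replicate number, and the y axis gives the percent of its peaks that lie at noncoding-only promoters, over all its peaks (left) and over the 3477 of highest total signal (right). Black bars are the mean and SD of the population. On the left Pdgfra+ nEnd replicate 1 (2.83%) sits among the Oct4+ libraries, and on the right the Oct4+ libraries (2.16% to 2.62%) sit above all others (1.09% to 1.41%).

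Over all consensus lists together, the members ranked below the regions at coding promoters in each of the 10 libraries. The difference of the median percentiles, members minus coding regions, was -5.33, -12.6, -10.8 and -9.22 in Oct4+ nEnd replicates 1 to 4, -13.3, -17.4 and -14.8 in DP nEnd, and -15.5, -20.2 and -18.2 in Pdgfra+ nEnd. All 10 values were below 0, and the mean was -13.7 ± 4.48 (SD, n = 10; exact two-sided sign-flip permutation test, p = 0.00195, the smallest it can give). The libraries scored the same regions, chosen from their own peaks, so the p says only that the order recurred in them. Without the regions of the Oct4+ list alone, left out of both classes after the values were seen, the mean was -11.8. Within the Oct4+ list alone the order was the other way: by total signal the members' median lay above that of coding regions in all 4 Oct4+ libraries, by 12.3, 2.74, 5.10 and 2.27, whereas by the highest coverage in the peak the differences were -5.80, -5.86, 6.36 and -6.30. Within all 3 lists the members lay below in 8 of 10 libraries by total signal, with Oct4+ nEnd replicates 1 (2.48) and 4 (0.399) above 0, and in 10 of 10 by highest coverage. The difference was thus not the same in every list. What the spread of the 2 classes over the lists adds to the pooled value was not tested. The Oct4+ values all lay above the others, which is a description only, since 93 members entered through the Oct4+ list alone. With the 3477 strongest peaks of each library all 10 differences were again below 0, but the order of the populations changed. Their mean was then -3.03 ± 2.08 (SD, n = 3) in Pdgfra+ nEnd, -6.63 ± 3.21 (SD, n = 4) in Oct4+ nEnd and -13.2 ± 4.37 (SD, n = 3) in DP nEnd. Pdgfra+ nEnd thus lay above Oct4+ nEnd on average, and the ranges of both other populations overlapped that of Oct4+ nEnd.

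The members also had peaks in fewer libraries. A peak was present at 90.1%, 86.2%, 31.2% and 51.8% of the members in Oct4+ nEnd replicates 1 to 4, and at 90.5%, 85.6%, 37.8% and 52.3% of the coding regions. In DP nEnd it was present at 58.1%, 67.2% and 50.2% of the members and at 90.5%, 95.0% and 84.7% of the coding regions. In Pdgfra+ nEnd the values were 69.2%, 39.1% and 54.2% against 96.6%, 72.7% and 86.7%. The classes were thus nearly level in Oct4+ nEnd replicates 1, 2 and 4 and 27.4 to 34.5 points apart in the DP and Pdgfra+ libraries. Over all 10 libraries the mean difference was -19.5 points ± 15.6 (SD, n = 10), below 0 in 9 of 10. Without the regions of the Oct4+ list alone it was -5.59 points. The lists that chose the regions were made from the presence of peaks in these libraries, so these values are a description and support nothing. Only 43 members (17.0%) had a peak in all 10 libraries, against 33.9% of the coding regions.

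**Figure D3:**
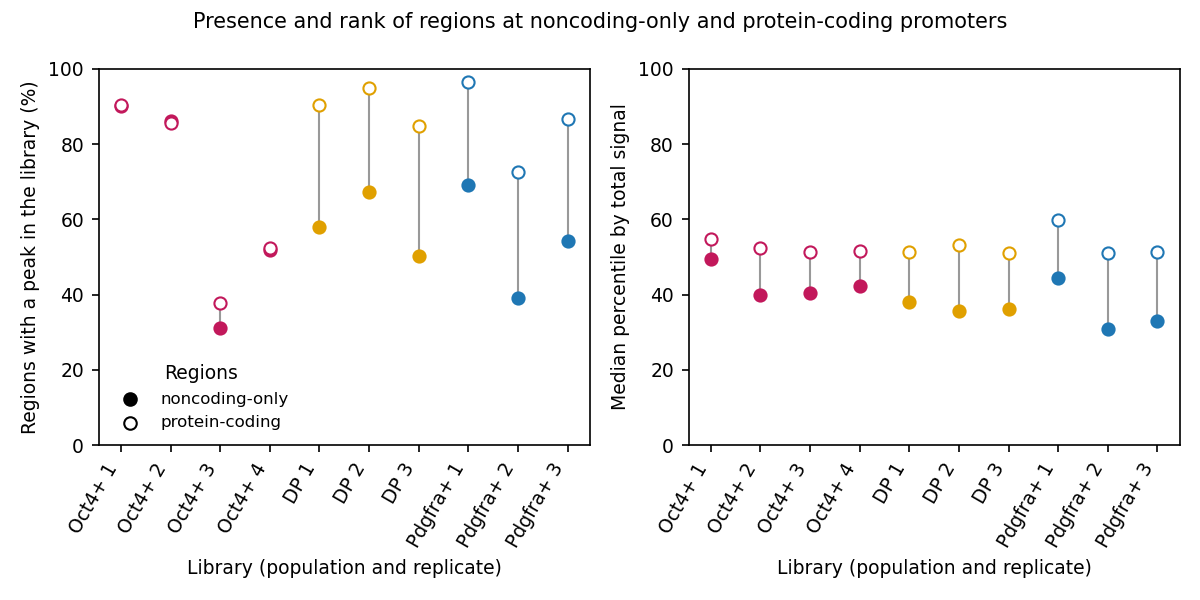
For each of the 10 libraries (x axis), filled points give the noncoding-only regions and open points the coding regions, as the percent with a peak (left) and the median percentile by total signal among the regions with a peak (right). The points nearly coincide on the left in Oct4+ nEnd replicates 1, 2 and 4 and are far apart in DP and Pdgfra+ nEnd, and on the right the filled point is lower in every library.

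Among members of the Oct4+ list alone, several were lncRNAs associated with pluripotency. *Lncenc1* (chr13:97480677-97490453) had percentiles of 92.4, 83.2, 52.5 and 82.9 in the 4 Oct4+ libraries and no peak in any DP or Pdgfra+ library. *Platr12* had 85.1, 75.8, 30.4 and 68.7, and *Platr10*, whose promoter is printed above, 75.8, 69.1, 9.63 and 50.6. *Platr22* had 62.3, 55.1, 16.5 and 56.4. None of the 3 *Platr* regions had a peak in the other 6 libraries, and each was lowest in Oct4+ nEnd replicate 3. Several of these peaks were wide rather than high: by highest coverage *Lncenc1* had 49.2, 33.7, 11.3 and 37.1, and *Platr22* 25.6, 4.96, 0.590 and 4.32, while *Platr12* had 83.1, 69.2, 70.4 and 72.8. Of 39 annotated genes in a list of pluripotency-associated lncRNAs, 7 were at 8 member regions, 4 of these in the Oct4+ list alone, 1 in the Oct4+ and DP lists and 3 in all 3 lists. Another 7 genes were at regions that also held a coding promoter, and 25 were at no region. Of these 7, *Platr17*, *Platr20*, *Platr23*, *Snhg3* and *Tug1* were in all 3 lists. *Platr25* was in the DP and Pdgfra+ lists and *Panct2* in the Oct4+ and DP lists. The Oct4+ list alone held 36.8% of all members.

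*Platr4*, of the Oct4+ and DP lists, was weak throughout, with 46.6 and 18.0 in Oct4+ nEnd replicates 1 and 2, and peaks at 9.82 (replicate 1) and 6.75 (replicate 2) in DP nEnd and at 22.6 (replicate 1) in Pdgfra+ nEnd. The other 5 libraries had no peak there.

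The Oct4+ list alone also held lncRNAs next to developmental regulators. *Halr1*, a lincRNA (chr6:52101739-52108333), had percentiles of 94.8, 91.4, 74.6 and 61.8 in Oct4+ nEnd and no peak elsewhere. *Sox2ot*, the transcript that overlaps *Sox2*, had a peak only in Oct4+ nEnd replicates 1 (36.7) and 2 (2.06). These were the 2 member genes among 34 annotated ones of this list, and 11 others were at regions with a coding promoter. Of these 11, *Otx2os1* was in the Oct4+ list alone, and *Hotairm1*, *Hottip*, *Hoxaas3* and *Tbx3os1* were in all 3 lists. *Emx2os*, *Foxd2os*, *Lhx1os* and *Pantr1* were in the DP list alone, and *9030622O22Rik* and *Dlx1as* in the DP and Pdgfra+ lists.

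By the fixed rule the strongest member of the Oct4+ list alone was *Nphs1os*, an antisense RNA at the nephrin gene, with 96.3, 92.6, 90.3 and 84.9 in Oct4+ nEnd, a peak at 16.3 in DP nEnd replicate 2 and none in the other 5 libraries. *Lncenc1* was next, then the predicted genes *Gm43936*, *Gm28719* and *Gm28720* at 1 region, with 92.0, 87.0, 42.4 and 81.4, and the pseudogene *Oaz2-ps*, with 85.7, 72.4, 66.4 and 69.5. Neither of these had a peak outside Oct4+ nEnd, but 1209 bp of the *Oaz2-ps* region have a near-identical copy elsewhere in the genome, so its reads cannot be placed with certainty. *Gm20703* had 91.9, 69.0, 51.9 and 89.6 in Oct4+ nEnd, 19.5 in DP nEnd replicate 2 and 16.6 in Pdgfra+ nEnd replicate 1.

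The 93 members of the Oct4+ list alone were mostly weaker than these. Their median percentile was 39.2, 20.2, 33.7 and 29.1 in Oct4+ nEnd replicates 1 to 4, over the 93, 91, 20 and 51 that had a peak, against 26.9, 17.5, 28.6 and 26.8 for the coding regions of that list. In 75 of them (80.6%) no DP or Pdgfra+ library had a peak, against 254 of the 538 coding regions of that list (47.2%). All peaks of these members outside Oct4+ nEnd were in DP nEnd replicate 2 (10 members) or Pdgfra+ nEnd replicate 1 (16 members), the libraries with the most peaks of their populations.

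Oct4+ nEnd replicate 3 was not used to choose the members. It had a peak at 79 of the 219 members with Oct4+ among their lists (36.1%) and at 0 of the 34 without. For coding regions these values were 3207 of 7224 (44.4%) and 1 of 1270, so the share over all such members was the lower. For members of the Oct4+ list alone the share was 20 of 93 (21.5%), and for coding regions of that list 56 of 538 (10.4%). For regions of all 3 lists it was 51.9% of the members and 48.4% of the coding regions, and for those of the Oct4+ and DP lists 26.7% and 27.4%. This is a single library, and no test was made.

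Some regions had peaks throughout 1 population and nowhere in a second, and these were counted among the members and among all 9134 regions. Every Oct4+ and no DP library had a peak at 18 members (7.11%, against 1.01% of all regions), and every Oct4+ and no Pdgfra+ library at 20 (7.91%, against 1.43%). The 2 that the second count adds are the Mir290 cluster and *Nphs1os*. Of the coding regions, 0.553% had the first pattern and 0.883% the second. Regions at no annotated promoter were not counted apart, so these shares are not shown to be particular to noncoding promoters. With Oct4+ nEnd replicates 1, 2 and 4 alone, which was added after the values were seen, the counts rose to 44 and 45 (17.4% and 17.8% of the members, against 2.93% and 3.22% of all regions). In the opposite direction, every DP and no Oct4+ library had a peak at 9 members (3.56%, against 4.82% of all regions), and every Pdgfra+ and no Oct4+ library at 8 (3.16%, against 3.59%). These last shares were near the background. Between DP and Pdgfra+ nEnd, 1 member, the Mir290 cluster, had a peak in every DP and no Pdgfra+ library (0.395%, against 0.263% of all regions) and 0 members the reverse (0.0109% of all regions). The Oct4+ libraries are common to both of the first counts, and the lists that chose the members were made from the same peaks.

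The miRNA clusters gave 7 member regions with 22 of the 57 annotated genes of the miRNA list. The Mir290 to Mir295 region, 15509 bp wide, had percentiles of 98.5, 95.8, 94.4 and 94.4 in Oct4+ nEnd, 37.9, 46.1 and 39.4 in DP nEnd, and no peak in Pdgfra+ nEnd. The populations did not overlap. These percentiles rest on signal summed over wide peaks: by highest coverage the Oct4+ libraries had 64.8, 83.2, 88.4 and 78.7 and the DP libraries 1.30, 3.53 and 1.17, among the lowest peaks of those libraries. The Mir106a to Mir363 region had 40.8, 48.1 and 38.7 in Oct4+ nEnd replicates 1, 2 and 4 and no peak in the other 7 libraries. Its paralogue at *Mir17hg*, with the same seed, had a peak in all 10 libraries, between 42.4 and 68.2. *Mir124a-1hg*, the host of a neuronal miRNA, had 75, 68.1 and 34.1 in Oct4+ nEnd replicates 1, 2 and 4 alone.

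The region of *Rncr4* and of the Mir182, Mir183 and Mir96 genes, miRNAs known from sensory organs, was the strongest member, with percentiles from 99.8 to 100 in all 10 libraries over 17277 bp. *Dleu2*, the host of Mir15a and Mir16-1, had 2 member regions, both in all 3 lists. *Mir193a* was marked in no Oct4+ library and in all 6 others, at 13.4, 12.3 and 2.83 in DP nEnd and 41.8, 6.10 and 21.3 in Pdgfra+ nEnd. *Mir21a* had 13.8 and 26.2 in DP nEnd replicates 1 and 2, then 51.1 in Pdgfra+ nEnd replicate 1 and 6.23 in replicate 3. The remaining libraries had no peak there.

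Among the 23 members of the DP and Pdgfra+ lists, *Airn* (chr17:12739346-12745507, in the body of *Igf2r*) had percentiles of 39.5, 52.5 and 50.8 in DP nEnd and 73.8, 41.2 and 56.7 in Pdgfra+ nEnd, and no peak in Oct4+ nEnd. The predicted gene *Gm38399* had the highest lowest value of this group, with 85.2, 84.8 and 81.9 in DP nEnd, 91.3, 66.6 and 80.8 in Pdgfra+ nEnd and none in Oct4+ nEnd. DP and Pdgfra+ nEnd overlapped at both regions. *Gm6410* and *Gm7461*, at 1 region, had 49.6, 61.2 and 59.6 in DP nEnd and 78.0, 72.2 and 47.3 in Pdgfra+ nEnd, with a peak at 20.8 in Oct4+ nEnd replicate 1. Of the 13 annotated imprinted noncoding RNAs listed, *Airn* and *Kcnq1ot1*, which lies in the body of *Kcnq1*, were at member regions. *Kcnq1ot1* had a peak in all 10 libraries, between 27.8 and 74.8. None of 4 annotated RNAs of the X inactivation centre was at a region.

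Members of the DP list alone (6) or the Pdgfra+ list alone (5) were weak and not separated from the other populations. All 6 of the DP list had a peak in Pdgfra+ nEnd replicate 1 and none in DP nEnd replicate 3. All 5 of the Pdgfra+ list had a peak in DP nEnd replicate 2, and 2 of them had one in Pdgfra+ nEnd replicate 2. The highest percentile of any of the latter was 37.7, at *1700012D14Rik* in Pdgfra+ nEnd replicate 1. Of the 5 members of the Oct4+ and Pdgfra+ lists, each had a peak in DP nEnd replicate 2 as well, and 2, *Gm10060* and *6820431F20Rik*, have a near-identical copy elsewhere in the genome. In all, 5 members (1.98%) and 23 coding regions (0.271%) have a copy of at least 1000 bp at 98% identity elsewhere, and the values of these regions are uncertain.

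The 106 members of all 3 lists included snoRNA host genes and nuclear RNAs. Of the 19 annotated genes in the list of snoRNA hosts, 10 were at members, all in this group, 8 were at regions that also held a coding promoter and 1 was at none. The 10 include *Mir17hg*, which is known as a miRNA host and had no snoRNA gene at its region. *Malat1*, a nuclear speckle RNA, had percentiles of 98.6, 96.7, 93.8 and 96.2 in Oct4+ nEnd, 98.4, 97.2 and 92.0 in DP nEnd, and 98, 51.7 and 91.9 in Pdgfra+ nEnd. *Neat1*, which builds paraspeckles, had a peak in all 10 libraries, between 65.0 and 96.6. Both had their lowest value in Pdgfra+ nEnd replicate 2, the library with the fewest peaks of its population. Of the housekeeping list, 4 of 14 annotated genes were at members, and *Rn7sk*, the RNA that holds P-TEFb inactive, was in the Oct4+ list alone with low percentiles (22 and 2.47) and peaks at 9.51 in DP nEnd replicate 2 and 26.7 in Pdgfra+ nEnd replicate 1.

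**Figure D4:**
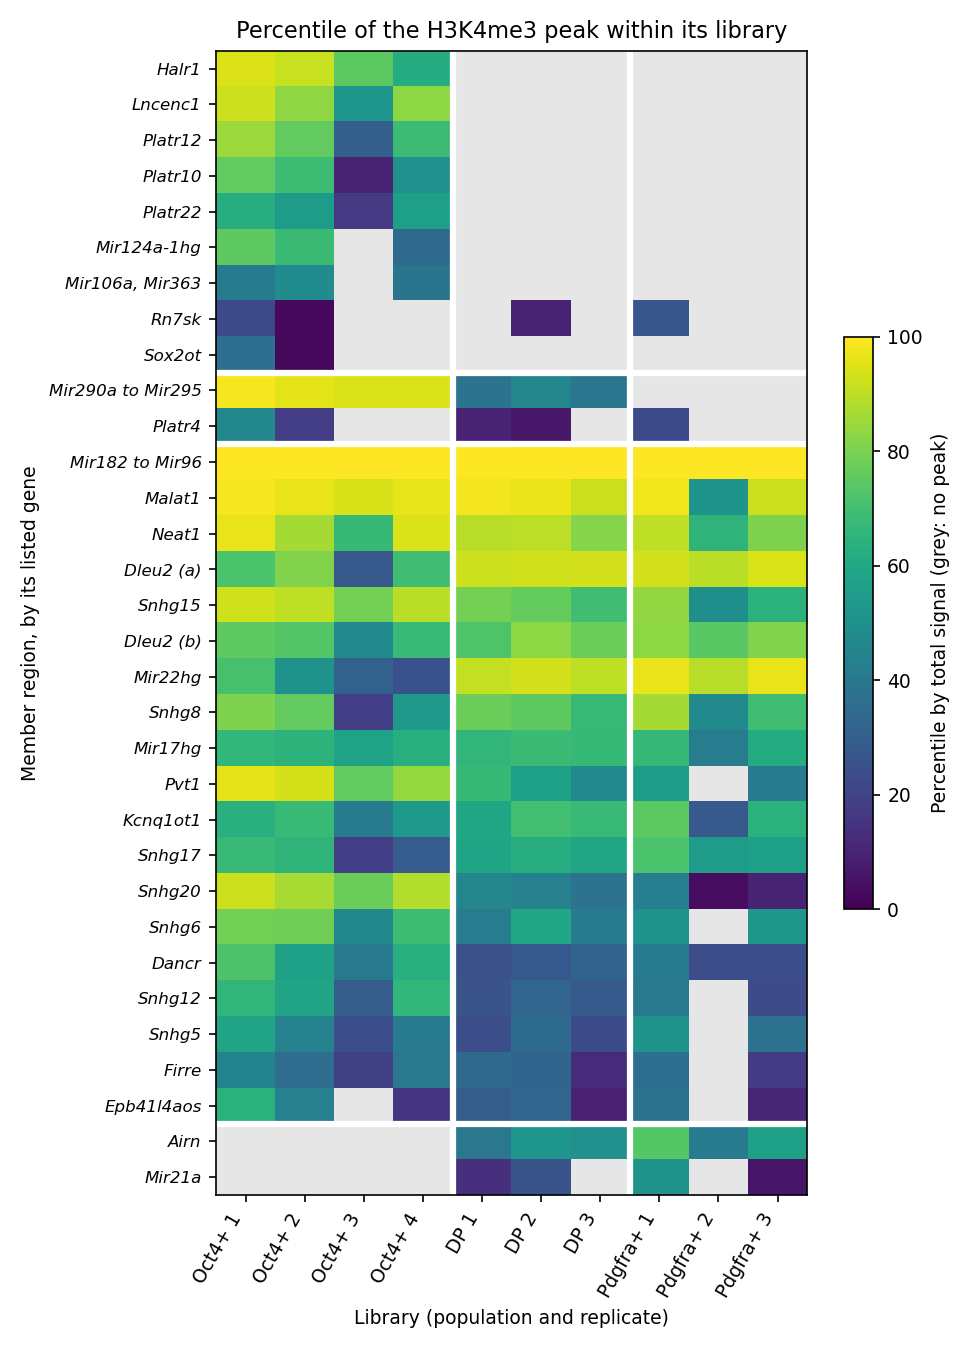
Each row is a member region with a gene of the fixed lists, each column a library, and the colour gives the percentile of the region's strongest peak by total signal among that library's peaks (grey, no peak). From top to bottom the blocks are regions of the Oct4+ list alone, of the Oct4+ and DP lists, of all 3 lists, and of the DP and Pdgfra+ lists. Halr1, Lncenc1 and 3 Platr regions have a peak in 4 of 4 Oct4+ libraries and 0 of 6 others.

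The 43 members with a peak in every library could also be compared by their order of signal. They were ranked among the 2938 regions of all classes with a peak in every library. Of these members, 14 (32.6%) ranked higher in every Oct4+ than in every DP library, against 23.0% of all 2938, and 4 (9.30%) ranked lower, against 23.7%. Against Pdgfra+ nEnd, 11 (25.6%) ranked higher in every Oct4+ library, against 22.4%, and 6 (14.0%) lower, against 23.9%. Between DP and Pdgfra+ nEnd, 1 member ranked higher in every DP library (2.33%, against 7.79%) and 2 in every Pdgfra+ library (4.65%, against 9.26%). These are descriptions of 43 regions that share libraries, and they depended on the measure. By highest coverage, added after these values were seen, 4 members (9.30%, against 12.7% of all 2938) ranked higher in every Oct4+ than in every DP library and 3 (6.98%, against 12.8%) lower. Against Pdgfra+ nEnd the numbers were 6 (14.0%, against 10.7%) and 3 (6.98%, against 10.3%). Between DP and Pdgfra+ nEnd they were 0 (against 4.8%) and 3 (6.98%, against 4.53%).

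By total signal, snoRNA host genes were among those that ranked higher in Oct4+ nEnd. *Snhg20* had rank percentiles of 78.8, 66.4, 75.7 and 82.9 in Oct4+ nEnd, 7.35, 3.0 and 4.08 in DP nEnd, and 1.02, 0.953 and 0.170 in Pdgfra+ nEnd. By highest coverage it had 23.7, 13.3, 9.65 and 18.8 in Oct4+ nEnd, still above DP nEnd (2.16 to 3.76), but Pdgfra+ nEnd (1.86 to 30.2) overlapped both. Its peaks were 7669 to 10282 bp wide in Oct4+ nEnd and 8660 to 9310 bp in DP nEnd. In Pdgfra+ nEnd replicates 1, 2 and 3 they were 6833, 1884 and 2028 bp wide.

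*Snhg15* had 80.4, 75.4, 77.3 and 84.3 by total signal in Oct4+ nEnd against 34.4 to 50.5 in DP and 26.8 to 52.9 in Pdgfra+ nEnd, and by highest coverage it stayed above Pdgfra+ nEnd but overlapped DP nEnd. *Dancr*, a lncRNA that restrains differentiation and hosts a snoRNA, had 28.1, 9.36, 37.5 and 46.1 by total signal in Oct4+ nEnd against 0.0681 to 2.08 in DP and 0.749 to 8.07 in Pdgfra+ nEnd. By highest coverage that order was lost, with 2.42 to 35.0 in Oct4+, 1.48 to 6.21 in DP and 8.17 to 55.1 in Pdgfra+ nEnd.

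*Mir22hg*, the host of miR-22, ranked lower in Oct4+ nEnd by both measures. By total signal it had 25.8, 4.87, 28.0 and 5.82 in Oct4+ nEnd, 76.7, 82.0 and 77.6 in DP nEnd, and 89.2, 80.2 and 92.5 in Pdgfra+ nEnd. By highest coverage it had 0.204 to 13.8 in Oct4+ nEnd, 78.7 to 80.2 in DP nEnd and 38.6 to 96.2 in Pdgfra+ nEnd. One of the *Dleu2* regions was likewise lower in Oct4+ nEnd by total signal (25.7 to 54.6) than in DP (79.9 to 84.0) and Pdgfra+ nEnd (79.4 to 87.0), and also by highest coverage (8.25 to 29.4, against 63.4 to 71.8 and 47.8 to 71.7). *Snhg17* was lower in every Oct4+ library than in every Pdgfra+ library by total signal, with 7.85 to 19.9 against 21.5 to 31.9, and overlapped by highest coverage.

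*Pvt1*, downstream of *Myc*, had a peak in 9 of 10 libraries. Its percentiles among the peaks of each library were 95.9, 93.6, 75.9 and 84.3 in Oct4+ nEnd, 67.1, 57.0 and 47.7 in DP nEnd, and 56.1 and 40.7 in Pdgfra+ nEnd replicates 1 and 3. The Oct4+ values lay above all others, and did so by highest coverage as well (66.8 to 78.8, against 10.8 to 30.4). *Firre*, an X-linked nuclear RNA, had low values in the same 9 libraries, from 12.2 to 45.2.

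Base composition, which the rule did not use, differed between the groups of members. At the start site nearest the centre of each region, the 300 bases had a median ratio of observed to expected CpGs of 0.379 in members of the Oct4+ list alone and 0.709 in members of all 3 lists. In coding regions of the same lists it was 0.71 and 0.847. A CpG-rich window (GC of at least 50% and a ratio of at least 0.6) was found at 15 of 93 members of the Oct4+ list alone (16.1%), against 325 of 538 coding regions (60.4%), and at 60 of 106 members of all 3 lists (56.6%), against 84.1% of coding regions. The difference was also seen when any 300-base window of the region was allowed, a measure added after the first values were seen: 57.0% of members of the Oct4+ list alone held a CpG-rich window, against 90.5% of coding regions, and 95.3% of members of all 3 lists, against 99.5%. Annotated starts of noncoding genes are less precise than those of coding genes, and no test was made.

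Repeats were also more frequent at these starts. In 20 of 93 members of the Oct4+ list alone (21.5%) over 50% of the 300 bases were repeat-masked in the reference, against 4 of 538 coding regions (0.743%) and 4 of 106 members of all 3 lists (3.77%). Starts of pseudogenes were the richest in CpGs among the kinds of noncoding gene, with a median ratio of 0.679, and those of lncRNAs had 0.532.

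**Figure D5:**
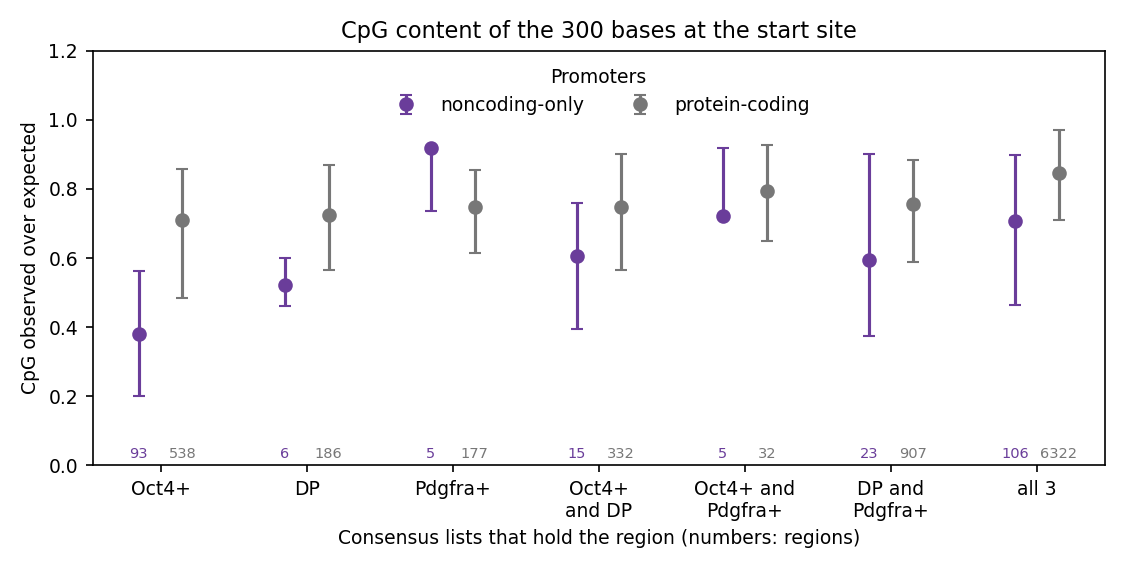
Points give the median ratio of observed to expected CpGs in the 300 bases at the start site (y axis) and bars the quartiles over regions, for noncoding-only and protein-coding regions in each combination of consensus lists (x axis), with the number of regions below. Noncoding-only regions of the Oct4+ list alone have the lowest median (0.379), and their coding counterparts have 0.71.

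3 short motifs, each counted on its own, were searched on both strands of the same windows. The octamer ATGCAAAT, which POU factors bind, was in 3 of 93 members of the Oct4+ list alone (3.23%), in 6.6% of members of all 3 lists and in 1.26% of all coding regions. The hexamer AGATAA, part of sites bound by zinc finger factors of the endoderm, was in 9.09% of all members and 4.58% of coding regions. The core promoter element TATAAA was in 9.09% and 4.85%. The windows of the members also had less G and C (median 54.3%, against 64.3% in coding regions), and its part in these shares was not tested.

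At the edge of the rule, the member nearest a protein-coding TSS was *Mir8119*, at 166 bp, followed by *Mir7000* at 435 bp and *2410003I16Rik* at 1227 bp. Among the regions left out at the other side of the edge, which reached a coding window as well as a noncoding one, those at *Tbx18* and *Tspan32* shared 487 bp and 627 bp with the coding window.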

How the data were processed

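H3K4me3 CUT&Tag was measured in 10 libraries. Per the labels, the authors demultiplexed with bcl2fastq 2.19.1, and Bowtie2, SAMtools 1.12, deepTools, SEACR and bedtools 2.26.0 are named with build mm10. The authors called peaks per library against IgG at SEACR's stringent setting and joined them into consensus lists with DiffBind. The deposited signal of a peak is its summed coverage, not scaled between libraries, with its highest coverage beside it. No read counts were used here, so depth is unknown and peaks missing from a library with few peaks may lie under its detection limit. The deposited consensus lists hold positions only, with the same value in every row.

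From these, overlapping consensus intervals were merged and classed by GENCODE release M21 starts (window 1000 bp upstream, 100 bp downstream, overlap of 1 bp). The percentile of a region is that of its strongest overlapping peak. Tests were exact two-sided permutation tests over libraries (for 2 populations, the smaller tail multiplied by 2) and exact sign-flip tests, with Benjamini-Hochberg adjustment over 3 pairs. The study describes its H3K4me3 tracks of the 3 populations as made from 3 biological replicates. The labels, which give 4 Oct4+ libraries, do not say which came from separate cultures, so p-values measure the spread between these samples. Near-identical copies were found with BLAST+ 2.17.0. Regions were joined and counted in Python 3.11.15 with pandas 2.3.3 and numpy 2.4.6, tests used scipy 1.17.1, sequences were read with pysam 0.24.0 and samtools 1.23.1, plots were drawn with matplotlib 3.10.9, and the tests were tested on simulated data.

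Named regions were those with a gene of the fixed lists, the 5 of each combination of consensus lists with the highest lowest percentile (Oct4+ nEnd over replicates 1, 2 and 4, no peak counted as 0), and the 5 widest. Regions named for their order of signal or for an edge of the rule were chosen after their values were seen. The members and lists were chosen with earlier results of these data known. Alternatives were other promoter windows and overlaps, lncRNA genes alone, any transcript of a coding gene counted as coding, equal numbers of peaks, ranking by highest coverage, narrow regions alone, a replicate block and leaving out each library. The rank order among regions with a peak in every library (by total signal and by highest coverage), the rank differences within a list, the counts with Oct4+ nEnd replicates 1, 2 and 4, the sets without regions of the Oct4+ list alone or without near-identical copies, the p from absolute differences and the search of whole regions for CpG-rich windows were added after seeing the data. Some items at members or at the edge of the rule are not reported here.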

Additional observations from a re-analysis of the deposited data

Results flagged for a closer look

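The share of members with a peak minus that of regions at coding promoters was -6.54 percentage points in Oct4+ nEnd replicate 3, far from the other 3 Oct4+ libraries, which lay between -0.517 and 0.529. This library had the fewest peaks (3477) and was not part of the Oct4+ consensus. At the 95% critical value of the Dixon test used, chance sets a sample apart in about 1 of 20 groups, and the part of either fact in the value was not tested.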

How the results depend on the processing

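Of 110 alternative values, 102 kept their direction and their side of the threshold or, for counts, stayed within 1.5 times. For the share of peaks the main test could not pass 0.05 whatever the values. Its side of the threshold was thus fixed, and only the direction could change. The difference in the share of peaks between DP and Pdgfra+ nEnd changed sign with equal numbers of peaks (0.144 points) and without Pdgfra+ nEnd replicate 1 (0.140), with a range of -0.413 to 0.140 over the libraries left out. The cause was not tested. With Oct4+ nEnd replicates 1, 2 and 4, chosen after seeing the data, members with a peak in every Oct4+ and no DP or no Pdgfra+ library rose to 44 and 45, since fewer libraries had to hold a peak. By highest coverage, also chosen after seeing the data, the members with a peak in every library that ranked higher in Oct4+ than in DP nEnd fell from 14 to 4, in Oct4+ than in Pdgfra+ nEnd from 11 to 6, in Pdgfra+ than in Oct4+ nEnd from 6 to 3 and in DP than in Pdgfra+ nEnd from 1 to 0. Leaving out each library gave 0.706 to 1.02 for Oct4+ minus DP nEnd, 0.462 to 1.01 for Oct4+ minus Pdgfra+ nEnd, -14.7 to -13.0 for the rank difference and -21.7 to -17.9 for the presence difference, whose threshold carries no weight because the rule used the presence of peaks. Over the other alternatives the rank difference was -22.5 (by highest coverage) to -7.51 (equal numbers of peaks), the presence difference -21.2 to -5.59 and the number of members 190 to 263. Between same-numbered libraries, the replicate block gave 0.900, 0.699 and -0.201 points for the 3 pairs of populations (exact permutation p = 0.25, 0.25 and 0.75). Correlations of same-numbered libraries' deviations ran from -0.244 to 0.244, and not every library correlated best with its own number. With so few libraries a population, these values cannot show whether same-numbered libraries came from the same culture.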
